A study of Mus musculus with 4 samples.

Results

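A set of 102 autosomal genes lost expression between day 0 and day 6 of mouse embryonic stem cell (mESC) differentiation and lost less of it under each of 2 hairpins against Smarca4. The set was chosen from the readout itself. A gene belonged when its mean level over the 4 libraries was at least 0 on the log2 CPM scale (CPM being reads scaled to the library total), its level in the control hairpin library at day 6 was lower than at day 0 by 2 log2 units or more, and its level in both Smarca4 hairpin libraries was at least 0.4 log2 units above the control. Chromosomes 1 to 19 were read, with chromosome 13 left out. Of 25965 listed genes, 12269 passed the level filter on these chromosomes, 496 were lost from day 0 to the control library, and 102 of these were retained, as the last condition is called here.

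The cells were female mESCs of an FVB/CAST F1 cross, and RNA-seq measured 1 library in each of 4 groups. Day 0 cells grew in 2i+LIF medium and were collected at hour 0. This medium holds inhibitors of MEK and GSK3 and leukaemia inhibitory factor (LIF) and keeps mESCs in the naive state. The other 3 libraries came from cells weaned into DME HiHi medium, which holds serum and no LIF. These cells were transduced on day 2 with a virus that carried an shRNA, selected with puromycin on day 3 and collected on day 6. The hairpin was a non-silencing control (Nons), Smarca4.4 or Smarca4.6. Groups follow the sample titles, since the genotype label reads Smarcc knockdown for Nons and for both hairpin libraries and non-silencing control for day 0. Time, medium (LIF included), transduction and selection all differ between day 0 and Nons and cannot be told apart. No value below has a replicate check. Intervals in parentheses beside a difference are exact 95% intervals of the ratio of reads in 2 libraries, which cover counting error only. Intervals of a share of genes are exact binomial 95% intervals, which treat genes as independent although all genes share the same 4 libraries. Levels are given in log2 CPM and differences in log2 units.

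Smarca4 (also called BRG1) is one of the alternative ATPases of the BAF complexes, which use ATP to move and evict nucleosomes and so change which DNA is open to transcription factors. In mESCs a specialised BAF complex built on this ATPase binds at pluripotency genes and their enhancers. When mESCs leave the naive state, the LIF and STAT3 pathway, the naive transcription factors and the metabolic enzymes that go with them are switched off.

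The 22-base guide strands of both hairpins are shown with the Smarca4 sequence that they pair with, because the same 102 genes were selected under both and the hairpins match different parts of the transcript. The sites were found by an exact match to the GENCODE M21 transcripts on mm10, and neither matched a transcript of another gene. Letters are 5′ to 3′, and capitals mark bases 2 to 8 of each guide and the bases of the site that pair with them.
Smarca4.4 guide: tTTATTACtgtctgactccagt
Smarca4.4 site: actggagtcagacaGTAATAAa
Smarca4.6 guide: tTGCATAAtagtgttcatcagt
Smarca4.6 site: actgatgaacactaTTATGCAa
The Smarca4.4 site lies at chr9:21703327-21703348 on the plus strand, in the 3′ UTR within exon 34 of 34, and is part of 3 of 4 annotated Smarca4 transcripts. Smarca4.6 pairs with coding sequence in exon 22 at chr9:21670504-21670525, present in 4 of 4 transcripts. The targeted gene itself stood at 7.93 log2 CPM at day 0, 7.84 in Nons, 7.04 with Smarca4.4 and 7.44 with Smarca4.6. Its level was therefore 57.3% of Nons with the first hairpin and 75.8% with the second, the lower of the pair being Smarca4.4.

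Library totals, recovered from the step of the deposited values, came to 18599401 reads for day 0, the shallowest, and to 45759793 for Nons, 47143738 under Smarca4.4 and 36495575 under Smarca4.6. A floor of 3 reads corresponds to 0.161, 0.0656, 0.0636 and 0.0822 CPM in the same order. Over all 12269 genes the median difference from Nons was 0.03 with Smarca4.4 and 0.06 with Smarca4.6. The 7 markers of undifferentiated mESCs summed to 5422 CPM at day 0, 1229 in Nons, 981 with Smarca4.4 and 1197 with Smarca4.6, so that summed level was no higher in either knockdown library than in Nons. Most of the sum at day 6 was Pou5f1, which was not lost (9.50 log2 CPM at day 0, 9.84 in Nons, 9.45 with Smarca4.4 and 9.94 with Smarca4.6), unlike the 6 other markers. By gene, 2 of the 7 were above Nons with both hairpins and 3 were below, none by 0.4 with both. Fewer cells of a type and less RNA per cell cannot be told apart in these bulk libraries.

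The retained genes had a median level of 4.04 log2 CPM at day 0, 0.50 in Nons, 1.45 with Smarca4.4 and 1.51 with Smarca4.6. Their loss from day 0 to Nons had a median of -2.90 log2 units (7.46-fold) and ran from -8.26 for Nptx1 to -2.01 for Slc47a1. Against Nons the medians were 0.75 with Smarca4.4 and 0.84 with Smarca4.6, which are 1.69-fold and 1.79-fold, and the largest values were 1.96 and 2.96, both for Mblac1. A level over Nons is not a return to day 0. Expressed as the share of the day 0 excess over Nons in CPM, the mean of both hairpins had a median of 10.2% and an interquartile range of 5.77% to 18.4%. In 53 of the 102 genes both knockdown libraries still lay at least 4-fold below day 0.

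Because all 3 differences in the rule contain the Nons library, the size of these values is a description of the selection. Loss of this size was seen in 4.04% of the 12269 genes. A level at least 0.4 above Nons was seen in 7.89% of them with Smarca4.4, in 12.7% with Smarca4.6 and in 4.81% with both, which is 590 genes. The 102 retained genes are 20.6% of the 496 lost genes (binomial 95% interval 17.1% to 24.4%) and 17.3% of those 590 genes. Among the 11773 genes that were not lost, 4.15% were at least 0.4 above Nons with both. The opposite state, at least 0.4 below Nons with both hairpins, held for 23 lost genes, or 4.64% of them, against 3.55% of all genes tested. Genes near the limits differed little from each other. Just inside the limit on retention were Tnfrsf19, Alpl and Dppa2, whose smaller difference was 0.401, 0.402 and 0.411, and just outside were Ngfr, D1Pas1 and Bmi1 at 0.399, 0.399 and 0.392. Slc47a1, Hsph1 and Hpdl stood just inside the limit on loss at -2.006, -2.011 and -2.034, while Sfxn2, Zkscan2 and Zfp936 stood just outside at -1.998, -1.947 and -1.929.

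**Figure D1:**
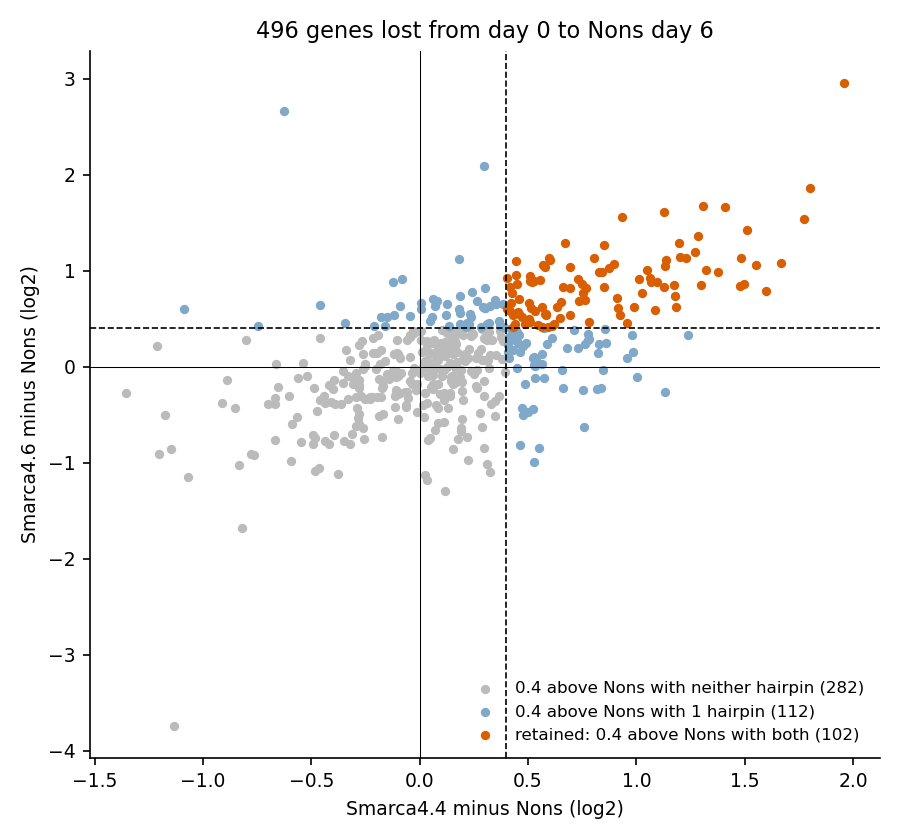
Difference from Nons at day 6 in log2 units with Smarca4.4 (horizontal axis) and Smarca4.6 (vertical axis), 1 point per gene, for the 496 genes lost from day 0. Dashed lines mark 0.4: the 102 retained genes (orange) fill the upper right corner by definition, 112 genes pass with 1 hairpin (blue) and 282 with neither (grey), and both axes contain the same Nons library.

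Equally lost genes that were not retained served as the comparison. The 394 lost genes not retained had a median loss of -2.78 against -2.90, and median differences from Nons of 0.08 with Smarca4.4 and -0.01 with Smarca4.6, which are lower than those of the members by selection. The 282 of them that reached 0.4 with neither hairpin had a median loss of -2.74. Their median levels were above those of the retained genes in both states, at 5.21 log2 CPM at day 0 and 1.98 in Nons, while the median length of the longest transcript was near equal (3441 and 3438 bases). The share retained was similar at each depth of loss: 11 of 44 genes (25%) were retained among those lost by 5 log2 units or more, 13 of 54 (24.1%) between 4 and 5, 23 of 109 (21.1%) between 3 and 4 and 55 of 289 (19%) between 2 and 3. The exact intervals of these shares overlapped, from 13.2% to 40.3% in the deepest bin and from 14.7% to 24.04% in the shallowest.

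The share varied more with the level in Nons. Below -1 log2 CPM in Nons, 10 of 21 lost genes were retained, and the share was 29.1% (23 of 79) between -1 and 0, 29.5% (31 of 105) between 0 and 1, 17.2% (16 of 93) between 1 and 2, and 7.14% (3 of 42) above 5. Genes that were not lost showed the same gradient, with 35.6% at least 0.4 above Nons with both hairpins between -1 and 0, 14.8% between 0 and 1, 11.5% between 1 and 2, and 0.95% above 5. At matched levels from 0 upwards the share was higher among lost genes, and between -1 and 0 it was lower. The binomial intervals were clear of each other only between 0 and 1, between 4 and 5 (6 of 35 against 2.66%) and above 5. They treat genes as independent, although all share the 1 Nons library, whose level also enters the definition of loss. What a repeat of the experiment would give cannot be read from them. The retained genes rest on few reads: their median in Nons was 64.5 reads, against 180 for lost genes retained by neither hairpin, and 65 of 102 had under 100 reads there. Both intervals lay wholly above 0 for 81 of the 102 (79.4%), which were chosen for differences of 0.4 or more, against 23.96% of all genes tested and 9.39% of the lost genes not retained, and the part that low counts in the shared Nons library play in membership was not tested.

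**Figure D2:**
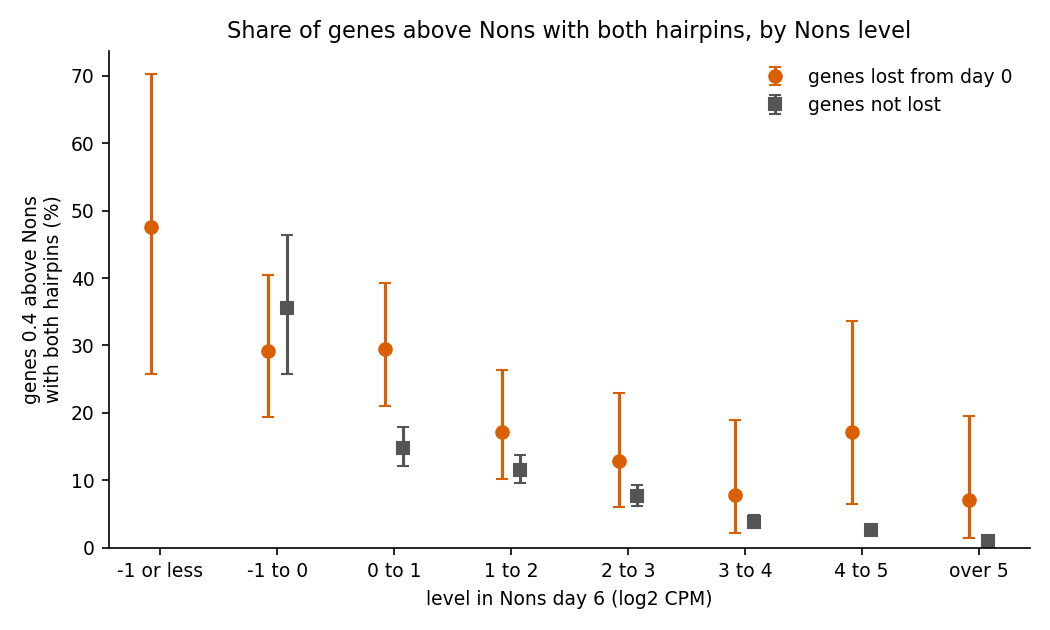
Share of genes at least 0.4 log2 units above Nons with both hairpins (vertical axis, %) in bins of the Nons level (horizontal axis, log2 CPM), for genes lost from day 0 (circles) and not lost (squares), with exact 95% binomial intervals and bins under 20 genes left out. The share is lower at high Nons levels in both, at 29.5% in the 0 to 1 bin and 7.14% over 5 for lost genes and at 14.8% and 0.95% for the others.

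Of the 22 naive pluripotency genes listed, 22 passed the filter, 19 were lost and 2 were retained, Tdh and Dppa2. Over all lost genes 102 of 496 (20.6%) were retained. At least 0.4 below Nons with both hairpins was 1 of the 19. The list does not hold Gbx2, Socs3 or Alpl, described below, so the count of members in it is bounded by the choice of genes. Tdh, the threonine dehydrogenase that mESCs use to split threonine into glycine and acetyl-CoA (chr14:63492347-63509092), stood at 8.64 at day 0, 1.23 in Nons, 1.74 with Smarca4.4 and 2.11 with Smarca4.6. Its loss was the deepest among the 22 genes plotted by level, and the differences from Nons of 0.51 (0.15 to 0.88) with Smarca4.4 and 0.89 (0.53 to 1.26) with Smarca4.6 amounted to only 0.377% of the day 0 excess. Dppa2, a chromatin factor of early embryos and mESCs (chr16:48310477-48319723), was at 6.47 at day 0, 4.18 in Nons, 4.61 with Smarca4.4 and 4.59 with Smarca4.6, or 0.43 (0.30 to 0.56) with Smarca4.4 and 0.41 (0.27 to 0.55) with Smarca4.6 above Nons. Nanog, Esrrb, Klf2, Klf4, Tbx3, Zfp42 and Prdm14 were lost and not retained, and over the 19 lost members the median differences were 0.06 and -0.15, against 0.18 and 0.14 over all 496 lost genes. None of the 3 lost genes in the core pluripotency list (Sox2, Gdf3 and Zfp296) and none of the 3 in the formative list (Lef1, Lefty1 and Lefty2) was retained.

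The LIF and STAT3 pathway, whose ligand was in the day 0 medium and not in that of day 6, had 2 retained genes. Of 13 listed members that passed the filter 3 were lost, and 2 of those, Gbx2 and Socs3, were retained, with Lifr the other lost gene. Bcl3, which was not lost, was the 1 member at least 0.4 below Nons with both hairpins, at -0.77 and -0.85. Over the 13 members the median differences were 0.16 with Smarca4.4 and 0.17 with Smarca4.6. Socs3, the feedback inhibitor that STAT3 induces against JAK kinases (chr11:117966079-117970047), had levels of 5.71 at day 0, 3.54 in Nons, 4.46 with Smarca4.4 and 4.16 with Smarca4.6. With 534 reads in Nons it was among the better measured members, at 0.91 (0.76 to 1.07) with Smarca4.4 and 0.62 (0.45 to 0.78) with Smarca4.6 above Nons and with 20.3% of its day 0 excess kept. Gbx2, a homeobox factor that acts downstream of STAT3 in mESCs (chr1:89927962-89933290), read 2.95 at day 0, -0.16 in Nons, 1.04 with Smarca4.4 and 0.98 with Smarca4.6. That is 1.20 (0.66 to 1.76) with Smarca4.4 and 1.14 (0.57 to 1.73) with Smarca4.6 over Nons on 41 reads, and the gene overlaps D130058E05Rik, from which its reads cannot be told apart because the strand setting of the counting was not stated.

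Transcription and chromatin genes made up 18 of the 102, by roles assigned by hand after the values had been seen. Roles were given to members only, so no share among other lost genes or all genes tested stands beside any role count. Whether a role is more frequent among the members than elsewhere cannot be read from these counts. Their median loss was -2.73 and their median differences from Nons were 0.77 and 0.81. Tfap2c, the AP-2 factor of trophectoderm and germ cells (chr2:172549593-172558622), was at 6.42 at day 0, 4.02 in Nons, 4.80 with Smarca4.4 and 4.49 with Smarca4.6, with differences of 0.78 (0.65 to 0.91) with Smarca4.4 and 0.47 (0.33 to 0.62) with Smarca4.6. Cbx8, a chromobox protein of Polycomb repressive complex 1 (chr11:119036305-119040969), read 1.81 at day 0, -0.35 in Nons, 0.25 with Smarca4.4 and 0.79 with Smarca4.6 on 36 reads in Nons.

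Nab2, a corepressor of the EGR factors (chr10:127660918-127668568), had the third largest smaller difference among members with 20 or more reads in Nons, at 4.44 at day 0, 1.73 in Nons, 3.04 with Smarca4.4 and 3.40 with Smarca4.6. Its differences of 1.31 (1.03 to 1.59) with Smarca4.4 and 1.67 (1.40 to 1.95) with Smarca4.6 cannot be separated from its neighbours, because Gm16229, an antisense gene on the other strand and itself a member, and the genes Stat6 and Tmem194 overlap it. Gm16229 was at 3.29 at day 0, 0.65 in Nons, 1.78 with Smarca4.4 and 2.26 with Smarca4.6. Zeb1, a zinc finger and homeodomain repressor of epithelial genes, was lost from 5.13 to -0.19 and stood at 1.13 and 0.81 with the hairpins. Pou4f1, a POU factor of sensory neurons, kept 39.8%, with levels of 3.31 at day 0, 1.20 in Nons, 2.69 with Smarca4.4 and 2.06 with Smarca4.6. Tcea3, an elongation factor of RNA polymerase II of the TFIIS family (chr4:136247729-136274898), was at 5.31 at day 0, 1.61 in Nons, 2.49 with Smarca4.4 and 2.64 with Smarca4.6. Prdm16, Tfeb, Glis3, Nfib, Mlxipl, Tle6, Zhx1, Brpf3 and Zfp518b complete the group, with smaller differences between 0.41 for Zfp518b and 1.00 for Prdm16.

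The 13 members that act in neurons and axons had the largest median differences of any role, 1.13 and 1.11, and a median loss of -3.34. Their median level was 3.55 log2 CPM at day 0 and -0.09 in Nons. That Nons median was the lowest of any role, the others lying between 0.32 and 1.49. Both differences were thresholded by the rule, and the roles were assigned after the values had been seen. The part of the low Nons level in the rank of this role was not tested. Kcng1, a modifying subunit of voltage-gated potassium channels (chr2:168260117-168281736), was at 2.12 at day 0, -0.09 in Nons, 1.42 with Smarca4.4 and 1.33 with Smarca4.6. It kept 48.5% of its day 0 excess, the highest share in this role. Dlgap3, a scaffold of the postsynaptic density (chr4:127169204-127237022), read 3.94 at day 0, -0.16 in Nons, 1.11 with Smarca4.4 and 1.04 with Smarca4.6. Its relative Dlgap1 was 1.18 (0.71 to 1.66) with Smarca4.4 and 0.85 (0.33 to 1.37) with Smarca4.6 above Nons. Cspg5, a neural chondroitin sulphate proteoglycan (chr9:110243783-110262575), stood at 3.55 at day 0, 0.21 in Nons, 1.41 with Smarca4.4 and 1.497 with Smarca4.6. Nefh, the heavy neurofilament subunit (chr11:4938754-4948064), was at 3.63 at day 0, 0.51 in Nons, 1.64 with Smarca4.4 and 1.62 with Smarca4.6, with differences of 1.13 (0.70 to 1.58) with Smarca4.4 and 1.11 (0.66 to 1.58) with Smarca4.6. That Nons is the lowest library in each of these is the rule by which they were chosen.

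Nptx1, a secreted pentraxin of synapses (chr11:119538719-119547753), had the deepest loss of all, from 5.74 to -2.52 on 8 reads in Nons. It stood at -1.04 with Smarca4.4 and -1.38 with Smarca4.6, so that it kept 0.489%, and its interval with Smarca4.6 ran from -0.22 to 2.59. Islr2, an axonal membrane protein, rested on 15 reads in Nons and read 2.93 at day 0, -1.61 in Nons, -0.20 with Smarca4.4 and 0.06 with Smarca4.6. Ntn1, the axon guidance cue netrin-1, was better measured at 152 reads, with levels of 5.83 at day 0, 1.73 in Nons, 2.83 with Smarca4.4 and 2.62 with Smarca4.6 and differences of 1.10 (0.82 to 1.38) with Smarca4.4 and 0.89 (0.58 to 1.19) with Smarca4.6. The semaphorin receptor Plxna2 and the others in this role, Cbln1, Itpka, Megf11 and Pirt, were at least 0.4 above Nons by definition, with smaller differences from 0.44 for Itpka to 0.85 for Cbln1. The neural markers Sox1, Pax6, Neurog2, Tubb3, Nes and Dcx are not members, and these 6 summed to 169 CPM at day 0, 446 in Nons, 441 with Smarca4.4 and 481 with Smarca4.6. Of them, Sox1, Pax6 and Tubb3 were at least 0.4 above Nons with both hairpins, and Neurog2 and Dcx were at 0 at day 0; their part in the retained set was not tested.

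Signalling molecules numbered 14, with the deepest median loss of any role (-3.66) and the lowest median share kept (6.83%). At a given difference from Nons a deeper loss gives a smaller share by arithmetic, so the loss and the share kept are not separate traits. Fzd10, a receptor for Wnt ligands (chr5:128601106-128604093), was at 4.89 at day 0, 0.37 in Nons, 1.65 with Smarca4.4 and 1.73 with Smarca4.6, and its differences were 1.28 (0.84 to 1.74) with Smarca4.4 and 1.36 (0.90 to 1.84) with Smarca4.6. It is the 1 retained gene among the 3 lost genes of the Wnt list, of which Axin2 and T were not retained, and their medians over the 3 were -0.09 and 1.36. Dpp4, a membrane peptidase, was lost from 6.15 to -0.82 and stood at 0.20 and 0.10, which is 0.767% of the day 0 excess. The Ras family member Mras was 0.64 (0.21 to 1.07) with Smarca4.4 and 0.62 (0.17 to 1.08) with Smarca4.6 above Nons, and for the exchange factor Rasgrp1 the values were 0.60 (-0.07 to 1.29) with Smarca4.4 and 1.11 (0.45 to 1.78) with Smarca4.6. Fgf3, a secreted FGF, was at 2.34 at day 0, 0.04 in Nons, 0.69 with Smarca4.4 and 0.72 with Smarca4.6. None of 19 genes in the list of FGF and ERK signalling, which does not hold Fgf3, was lost. Of these 19, 3 (Etv1, Spry2 and Fosl1) were at least 0.4 above Nons with both hairpins and 1 was at least 0.4 below. The hairpins differed most for Gpr126 and Tnfrsf19, receptors that were higher with Smarca4.6, at -0.65 (-1.08 to -0.23) and -0.53 (-0.74 to -0.31) for Smarca4.4 minus Smarca4.6. The rest were the ubiquitin ligase Siah2, the NAD-consuming enzyme Cd38, the chemerin receptor Cmklr1, the DNA sensor Aim2, Tnfrsf22 and Arhgap20, with smaller differences from 0.43 for Siah2 to 0.89 for Arhgap20.

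Enzymes and transporters supplied 18 members, among them the highest day 0 levels per kb of transcript. Alpl, the alkaline phosphatase used to stain undifferentiated mESCs (chr4:137741733-137796384), was at 8.47 at day 0, 3.02 in Nons, 3.42 with Smarca4.4 and 3.62 with Smarca4.6. Its differences of 0.40 (0.21 to 0.60) with Smarca4.4 and 0.60 (0.40 to 0.80) with Smarca4.6 sit at the limit of the rule and left it with 0.979% of its day 0 excess. Slc7a1, a carrier of cationic amino acids (chr5:148327410-148399904), read 7.89 at day 0, 5.54 in Nons, 6.10 with Smarca4.4 and 6.44 with Smarca4.6 on 2129 reads in Nons, and its differences were 0.56 (0.48 to 0.64) with Smarca4.4 and 0.90 (0.82 to 0.98) with Smarca4.6. Slc7a8, a carrier of neutral amino acids (chr14:54722216-54781886), was among the largest, at 2.54 at day 0, 0.46 in Nons, 2.01 with Smarca4.4 and 1.52 with Smarca4.6, and kept 46.9%. Slc7a8 thus came nearer to its own day 0 level than Slc7a1 did with each hairpin.

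Gss, which makes glutathione in the last step of its synthesis (chr2:155563181-155592810), was at 7.34 at day 0, 4.35 in Nons, 4.86 with Smarca4.4 and 4.82 with Smarca4.6. It overlaps Acss2 and 2 other listed genes, and its differences were 0.51 (0.39 to 0.63) with Smarca4.4 and 0.46 (0.34 to 0.59) with Smarca4.6. Echdc2, a mitochondrial protein of the enoyl-CoA hydratase family (chr4:108165437-108179308), read 7.24 at day 0, 4.38 in Nons, 4.82 with Smarca4.4 and 4.83 with Smarca4.6, with nearly equal values in both knockdown libraries. Of the list of serine, glycine and threonine metabolism, 18 passed the filter, 2 were lost (Tdh and Cbs) and Tdh alone was retained. Abca1, which exports cholesterol, was higher with Smarca4.4 by 0.56 (0.12 to 1.00), and Ttpa, which carries vitamin E, was higher with Smarca4.6, at -0.62 (-0.996 to -0.25). The triglyceride enzyme Dgat2 and Hpdl, Chst10, St8sia6, Msrb2, Pla2g4c, Tktl2, Slc39a2, Slc47a1 and the glucose carrier Slc5a2 had smaller differences between 0.42 for Dgat2 and 1.05 for Chst10.

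Matrix, junction and cytoskeleton genes came to 10. Lama1, the laminin chain alpha 1 of early basement membranes (chr17:67697265-67822645), was at 6.28 at day 0, 3.03 in Nons, 4.63 with Smarca4.4 and 3.82 with Smarca4.6. It had the widest positive difference between the hairpins of all 102, 0.81 (0.66 to 0.96), on 373 reads in Nons. The connexin Gjc1 was 0.42 (0.28 to 0.56) with Smarca4.4 and 0.66 (0.52 to 0.81) with Smarca4.6 above Nons. Titin (Ttn) was at 5.22 at day 0, 2.996 in Nons, 3.82 with Smarca4.4 and 3.99 with Smarca4.6 and kept 24%, the largest share in this role. Vwf was lost from 4.79 to -1.52 on 16 reads, and its intervals reached below 0 with both hairpins. Cobl, Cntln, Kif19a, Pdlim4 and Syne1 make up the rest, with smaller differences from 0.46 for Pdlim4 to 0.77 for Cobl.

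The remaining 29 members were placed in no role and had smaller differences from 0.42 for Btbd11 to 1.96 for Mblac1. They include Peg12, the largest smaller difference among members with 20 or more reads in Nons. Peg12, an imprinted gene read from the paternal copy (chr7:62461871-62464510), was at 4.14 at day 0, 0.24 in Nons, 2.04 with Smarca4.4 and 2.10 with Smarca4.6, with differences of 1.80 (1.36 to 2.27) with Smarca4.4 and 1.87 (1.41 to 2.34) with Smarca4.6 and 18.3% of its excess kept. It was the 1 gene retained among 3 lost in the imprinted list, since Plagl1 and Ddc were not, while 5 imprinted genes that had not been lost (Zdbf2, Sfmbt2, Magel2, Cdkn1c and Phlda2) were also at least 0.4 above Nons with both. The deposited values combine both alleles, so parent of origin was not read. Calcoco2, an autophagy receptor (chr11:96099326-96111964), was lost from 6.71 to 1.08 and stood at 2.15 and 2.01, with 2.06% of the excess kept. Hsph1, an HSP110 chaperone (chr5:149614287-149636376), had the most reads of any member in Nons, 5728, at levels of 8.98 at day 0, 6.97 in Nons, 7.47 with Smarca4.4 and 7.63 with Smarca4.6. Its intervals were correspondingly narrow, at 0.50 (0.46 to 0.55) with Smarca4.4 and 0.66 (0.61 to 0.71) with Smarca4.6.

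Gm7221 (chr7:42579783-42592547), listed as Zfp977 in current nomenclature, read 3.26 at day 0, 0.79 in Nons, 2.02 with Smarca4.4 and 1.92 with Smarca4.6, and it lies 224 kb from the member Gm2381, which was higher with Smarca4.4 by 0.64 (0.41 to 0.87). Predicted genes of this kind, and the processed pseudogenes Gm9788, Gm6104 and Brp44l-ps, can share reads with near copies and are uncertain. Mblac1 was the 1 member above its day 0 level in a knockdown library, Smarca4.6, at 0.59 at day 0, -1.52 in Nons, 0.44 with Smarca4.4 and 1.44 with Smarca4.6. It has only 16 reads in Nons, and the share kept, 146%, is taken over a small day 0 excess. With Kcng1, Hpdl, Slc5a2, Slc7a8 and Pou4f1 it made the 6 members that were less than 2-fold below day 0 in at least 1 knockdown library.

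**Figure D3:**
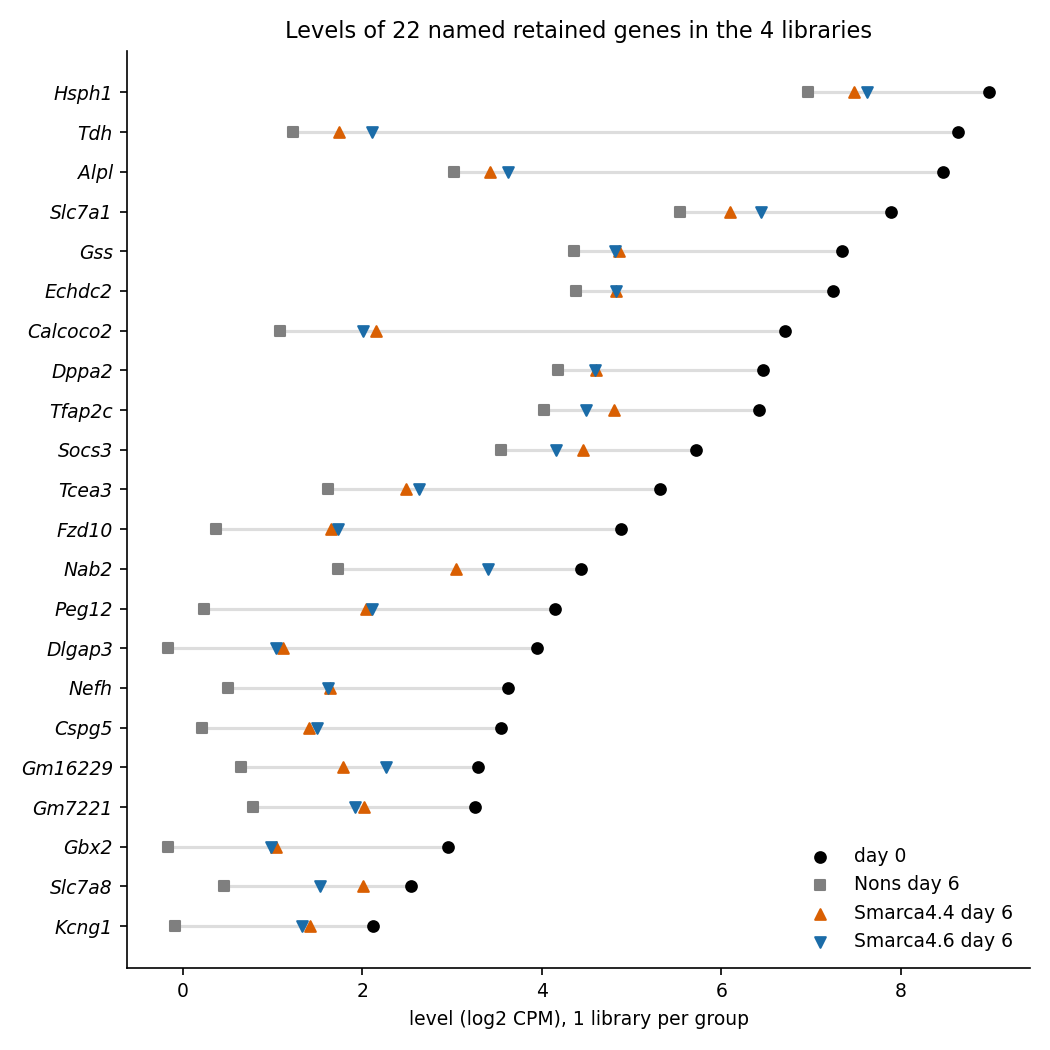
Level in log2 CPM (horizontal axis) of 22 of the retained genes named by rule, ordered by day 0 level, in the day 0 (circle), Nons (square), Smarca4.4 (upward triangle) and Smarca4.6 (downward triangle) libraries, 1 library per group. In every row day 0 is highest and Nons, by the choice of genes, lowest, and the triangles sit nearer to Nons for Tdh, Alpl and Calcoco2 and nearer to day 0 for Kcng1 and Slc7a8.

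**Figure D4:**
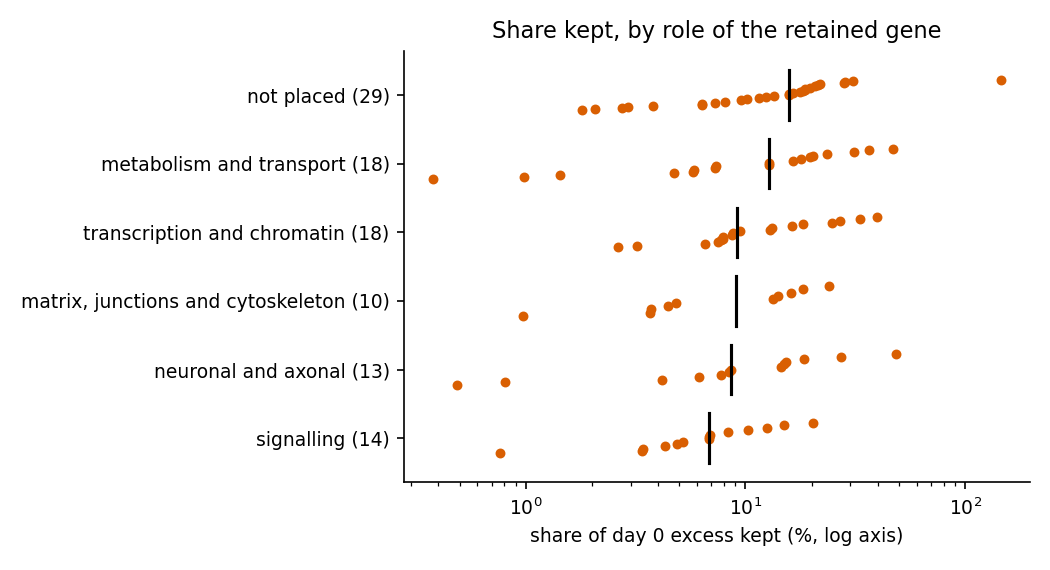
Share of the day 0 excess over Nons that was kept, as the mean of both hairpins (horizontal axis, %, log scale), for the 102 retained genes by role, with 1 point per gene, a bar at the median and the number of genes in parentheses. The medians run from 6.83% for signalling to 15.8% for genes placed in no role, and single genes from 0.38% for Tdh to 146% for Mblac1. At a given difference from Nons, a deeper loss gives a smaller share by arithmetic.

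The difference between the hairpin libraries contains neither Nons nor day 0 and was not thresholded. Over the 102 genes Smarca4.4 minus Smarca4.6 had a median of 0.00 and quartiles of -0.23 and 0.18, and 51 were higher with Smarca4.4. The median over all 12269 genes was -0.03, and over the 282 lost genes retained by neither hairpin 0.06. At least 0.4 higher with Smarca4.4 were 10 members, or 9.80%, against 5.68% of all genes tested. The share was 23.6% of the lost genes not retained and 18.1% of those retained by neither hairpin. At least 0.4 higher with Smarca4.6 were 15 members, or 14.7%, against 5.52%, 12.4% and 6.74% in the same order. The interval was clear of 0 for 29 members, of which 11 were higher with Smarca4.4 and 18 with Smarca4.6. That is 28.4% of the members, against 52.8% of all genes tested and 45.4% of the lost genes not retained, so that against all genes the order is the reverse of that at the 0.4 limit. The median reads in Nons were 64.5, 1090 and 148 in these groups, and their part in the shares was not tested. Smarca4 RNA itself was lower with Smarca4.4 than with Smarca4.6, by 0.40 log2 units. The median of the retained genes was thus no higher in the library with the lower Smarca4 level, and a requirement of 0.4 above Nons with both limits how far the hairpins could differ.

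**Figure D5:**
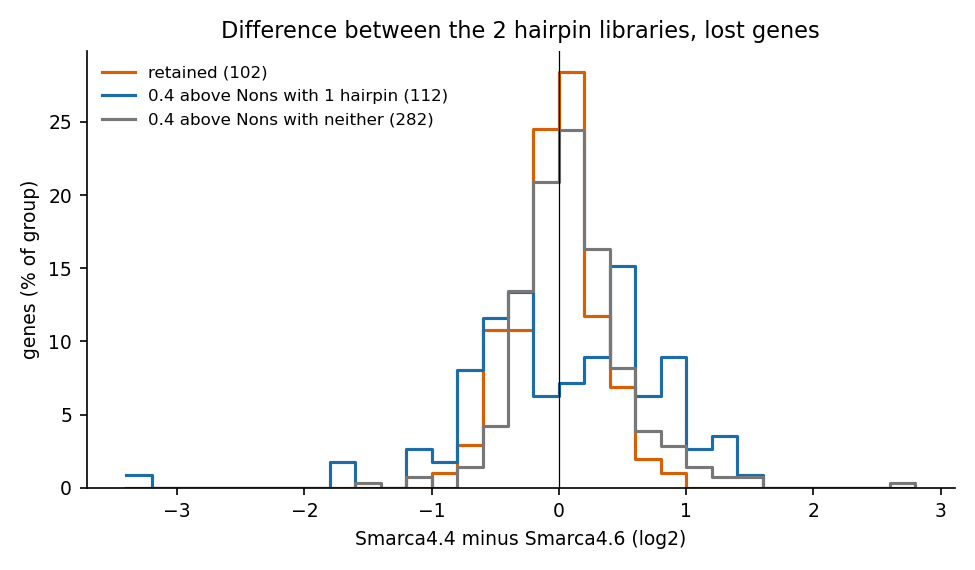
Distribution of Smarca4.4 minus Smarca4.6 in log2 units (horizontal axis, bins of 0.2) as a share of each group of lost genes (vertical axis, %): retained by both hairpins (102 genes), at least 0.4 above Nons with 1 hairpin (112) and with neither (282). The retained genes centre on 0.00, and the genes that pass with 1 hairpin spread widest because the rule splits the hairpins.

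Position and gene structure were not part of the rule, apart from the choice of chromosomes. Members lay on each of the 18 chromosomes read, most of them on chromosomes 11 (15 genes), 4 (12), 2 (11), 5 (10) and 7 (10), and the share of lost genes retained was 27.8%, 32.4%, 23.4%, 30.3% and 21.7% there. On chromosome 6 it was 1 of 33 lost genes, Vwf. Close pairs of members included Nab2 with Gm16229 and Gm7221 with Gm2381. Of the 101 members found in GENCODE M21, 87 had a protein-coding longest transcript. The median span of the retained genes was 21.9 kb against 35.5 kb for lost genes retained by neither hairpin and 22.2 kb for all genes tested, and their longest transcripts had medians of 7, 10 and 8 exons in the same order. Transcript GC content differed little, at 50.9%, 51.9% and 50.2%. A listed gene with 10 or more reads overlapped 13 members, which is 12.7% against 18.8% of the lost genes that were not retained.

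Markers of other cell types were read beside these results. Over all genes tested, 4.81% were at least 0.4 above Nons with both hairpins and 3.55% at least 0.4 below. The marker counts below also include genes under the level filter. Smooth muscle and mesenchyme markers, 10 genes, summed to 13.4 CPM at day 0, 1235 in Nons, 955 with Smarca4.4 and 825 with Smarca4.6, with Col3a1, Myl9 and Acta2 at 0 at day 0. None was at least 0.4 above Nons with both hairpins, and 2 of 10 were at least 0.4 below. Cardiac and skeletal muscle markers, 8 genes, summed to 16.3, 105, 45.2 and 28.0 CPM in that order, with Actc1 and Acta1 at 0 at day 0. Again none was at least 0.4 above Nons with both, and 3 of 8 were at least 0.4 below. Endoderm markers, 8 genes, summed to 8.44, 28.3, 36.5 and 35.2 CPM, with Ttr at 0 in every library and 4 of 8 at least 0.4 above Nons with both hairpins. Trophectoderm markers, 7 genes, summed to 103, 113, 155 and 125 CPM, and 2 of 7 (Tfap2c and Hand1) were at least 0.4 above Nons with both. Germ cell markers, 7 genes, summed to 1164, 76.6, 96.6 and 78.1 CPM, with 1 of 7, again Tfap2c, at least 0.4 above Nons with both. No endoderm, trophectoderm or germ cell marker was at least 0.4 below Nons with both. Of the 33 genes of the separate germline list that passed the filter 12 were lost and 0 retained, and of 25 BAF subunits 1 (Smarca2) was lost and 0 retained, with 2 lost and 0 retained of 15 genes in DNA methylation. No epithelial adhesion gene of 23 was lost, while 1 was at least 0.4 above Nons with both hairpins and 2 were at least 0.4 below. The part of these cell type markers in the retained set was not tested.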

How the data were processed

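RNA-seq was measured in 4 libraries, 1 per group. The authors prepared TruSeq libraries, sequenced them as 75 bp paired-end reads, trimmed them with trim_galore, aligned them with hisat2 to mm10 with FVB/NJ and CAST/EiJ variant positions masked, and counted reads over genes in SeqMonk, with no strand setting given in the sources used here. What they deposited is log2 CPM, both alleles together. Whole reads were recovered from the step of the low values (99.9891% to 99.9945% of values per library within 0.1 of a whole number), with reads of 0 written as 0.9 of a step. Differences are between deposited log2 values, and intervals are exact Clopper-Pearson 95% intervals of read ratios or, for shares of genes, of binomial proportions. With 1 library per group no p-value was computed. The genes named by rule are the 12 members with the largest smaller difference from Nons among those with at least 20 reads in Nons, the 10 with the highest day 0 level per kb of longest transcript, and members of a list (some are not reported here); other genes were named after their values were seen. The members, the 12 gene lists and the 7 marker lists were chosen with earlier results of these data known. The planned comparison of promoter sequence was void, since only 66 of 102 members (64.7%, under the minimum of 80%) matched a RefSeq promoter. The code of the selection rule was run on simulated reads that held counting error only and planted changes of a fixed size. Variation between libraries was not simulated, so the run does not show how far the real members would recur. Filters, a pseudocount, centring, both limits and overlap between genes were varied, and single libraries could not be left out. Python 3.11.15, pandas 2.3.3 and scipy 1.17.1 were used.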

Additional observations from a re-analysis of the deposited data

Results flagged for a closer look

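The 4 Y-linked genes Ddx3y, Uty, Eif2s3y and Kdm5d, which no comparison above used, summed to 106 reads in Nons, 156 reads with Smarca4.4 and 165 reads with Smarca4.6 at day 6, and to 0 reads at day 0, in libraries labelled female; these values were set apart because they exceed the limit of 3 reads that a count of 0 allows. Their part in the retained set was not tested.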

How the results depend on the processing

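No paired analysis was possible because there is a single library in every group, and for that reason none could be left out. Each value rests on 1 Nons library, and the cause of the changes below was not tested beyond the construction of each alternative. The number of retained genes (102), their share of the lost genes (20.6%), the median differences with Smarca4.4 (0.75) and Smarca4.6 (0.84) and the median share kept (10.2%) were recomputed under 13 alternatives, 3 of them chosen after seeing the data. Of 65 values 34 moved by less than the interval of the value reported, or by less than 1.5 times for the count. The sign of the median differences is fixed by the choice of genes under each alternative. A filter of 3 in place of 0 on the mean log2 CPM left 27 genes, 14.1% of the lost, with a Smarca4.4 median of 0.53. With no filter there were 348 genes, medians of 1.22 and 1.18 and a share kept of 15.6%. A pseudocount of 1 CPM left 41 genes, 10.6% of the lost, with a Smarca4.6 median of 0.65. A retention limit of 1 left 19 genes (3.83%), with medians of 1.31 and 1.20 and 18.3% kept. A loss limit of -1 gave 192 genes (13.7%), a Smarca4.6 median of 0.74 and 21.6% kept, and a limit of -3 gave 47 genes, a Smarca4.4 median of 0.93 and 4.90% kept. With the loss read from the mean of the 3 day 6 libraries, 66 genes remained, all of them members, at 14.1% of the lost and 6.89% kept. Of the alternatives added later, both intervals above 0 gave 16.3% of the lost, and both above 0.4 gave 33 genes, 6.65% of the lost, with medians of 1.13 and 1.05 and 16.4% kept. Centring each difference on the median of all genes left 88 genes, of which 87 are members.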

Other observations

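The same limits were also read on the chromosomes that the set leaves out. On chromosome 13, 22 of 482 genes that passed the filter were lost, and 6 of them (27.3%) were at least 0.4 above Nons with both hairpins: Lyst, Aoah, AC123954.1, Tgfbi, AC192334.1 and Pde4d. On the X chromosome 57 of 498 genes were lost and 14 (24.6%) met the limits, among them Timp1, Apln, Pcdh19, Zfp711, Zmym3 and Prps1. Lonrf3, Cfp, Tbc1d25, Slc10a3, Pcyt1b, C77370, B630019K06Rik and 4930502E18Rik were the others.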
